A study of Mus musculus with 18 samples.

Results

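A total of 750 of the 42403 GATA6 binding regions of mouse embryonic stem (ES) cells were bound by GATA6 transiently, were also bound by the endoderm factor SOX17, and carried no OCT4, SOX2 or ESRRB, together called the pluripotency transcription factors (PTFs). The members were chosen by classes in the deposited table: GATA6 binding that is lost again as differentiation advances (Transient), a called SOX17 peak, and no called PTF peak before or during differentiation. These classes rest on measured binding, so the binding itself is only described, and the peak caller's values by which a region entered or missed a class were not analysed here. The regions made up 4.61% of the 16285 Transient regions, 28.5% of the 2631 Transient regions with SOX17 and 8.43% of the 8895 SOX17 regions without PTFs. Of the same 2631 regions, 51.2% carried PTFs from d0 and 20.3% gained them after induction.

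The cells were of the KH2 ES cell line, of C57BL/6 x 129/Sv background, which carries a Gata6 transgene that doxycycline (Dox) switches on. They grew on inactivated fibroblast feeders in serum and LIF, and 1 µg/mL Dox pushed them towards primitive endoderm (PrE), the extra-embryonic lineage that forms the parietal and visceral endoderm. The 18 libraries of the series measured MNase digestion in untreated cells (0 h, called d0) and at 8, 16, 24, 48 and 96 h of Dox, with 3 replicates each, and all of them carried the transgene. The MNase signal over these regions was not analysed here, and every result is a count of regions, not of libraries. As a model, GATA6 came from an inducible transgene in clones of 1 cell line, in addition to the cells' own gene.

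GATA6 is a zinc finger factor that reads the letters GATAA and can engage its motif within nucleosomes, and it is required for PrE formation. SOX17 is a high mobility group factor of the SoxF family that binds the letters ATTGT and is switched on during PrE differentiation. OCT4 and SOX2 bind a joint motif in ES cells and hold pluripotency genes active, and ESRRB is an orphan nuclear receptor of the same network.

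The sequences below show what the motif counts rest on. They are the 3 regions with the highest summed scores of a GATA6 and a SOX17 motif that lie apart from each other within the summit window, which reaches 100 bp to each side of the base of highest GATA6 signal. Each is the plus strand of GRCm38 (mm10), 5′ to 3′, with the best GATA6 and the best SOX17 motif of the window in capitals, so that a minus-strand GATA6 motif reads TTATC. Scores are log-odds scores, in which a higher score means closer letters to the factor's matrix.
In an exon of the noncoding Gm14062, chr2:137872461-137872599: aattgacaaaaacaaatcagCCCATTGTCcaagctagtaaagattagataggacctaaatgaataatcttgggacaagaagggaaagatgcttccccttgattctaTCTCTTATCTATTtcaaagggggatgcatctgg
In an intron of Nfatc2, chr2:168524736-168524872: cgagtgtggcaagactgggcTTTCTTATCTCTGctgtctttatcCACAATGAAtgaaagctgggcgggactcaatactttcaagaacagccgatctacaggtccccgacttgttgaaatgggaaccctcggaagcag
In an intron of Etl4, chr2:20776869-20776939: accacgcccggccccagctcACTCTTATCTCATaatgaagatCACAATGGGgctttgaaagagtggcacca

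The Gm14062 region was closed at d0, was in the naive histone state and was classed as decreased in GATA6 binding after Oct4 knockdown. Its GATA6 motif scored 13.84 and its SOX17 motif 12.83, with 77 bp between them. At Nfatc2, which codes for a calcium-regulated transcription factor, the motifs scored 15.02 and 11.55 and stood 11 bp apart in a moderately accessible active enhancer. At Etl4 they scored 14.06 and 12.06 and stood 9 bp apart in a moderately accessible primed enhancer. Such pairs were not the rule, as shown further on: 34.0% of the 750 windows held both motifs.

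Further regions mark the ends of the range. The highest GATA6 score, 15.14, fell in a closed intron of Srrm4 in facultative heterochromatin that held no SOX17 motif at all. Among accessible regions the highest GATA6 score, 14.57, lay 271 bp from the start of Cbx2, a Polycomb gene, again without a SOX17 motif. The region with the best GATA6 motif among those classed as increased in GATA6 binding after Oct4 knockdown lay in an intron of Tcf7l2, a WNT effector. It had a GATA6 score of 14.74 and a SOX17 motif 17 bp away. Among those classed as decreased the best motif, with a score of 14.81, lay 6285 bp from the start of Olfm2. They are shown on the plus strand with the same capitals.
Srrm4 intron, chr5:116539874-116539955: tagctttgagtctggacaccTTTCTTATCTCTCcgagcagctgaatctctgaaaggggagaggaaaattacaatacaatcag
Cbx2 promoter, chr11:119023213-119023272: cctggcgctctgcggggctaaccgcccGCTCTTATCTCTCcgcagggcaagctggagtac
Tcf7l2 intron, chr19:55926369-55926449: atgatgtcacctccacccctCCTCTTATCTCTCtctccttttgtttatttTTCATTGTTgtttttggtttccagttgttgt
Between genes near Olfm2, chr9:20666806-20666966: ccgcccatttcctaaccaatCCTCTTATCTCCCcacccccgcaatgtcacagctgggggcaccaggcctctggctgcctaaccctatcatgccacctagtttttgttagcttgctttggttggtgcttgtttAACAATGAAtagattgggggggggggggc

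The highest SOX17 score, 12.83, was shared by 16 members, and the first of them by position lay 68 bp from the start of the noncoding Gm14004, in a moderately accessible poised enhancer. The region with the most GATA6 motifs, 14, was also the widest at 2878 bp, and lay between genes 15640 bp from Pepd, closed at d0. The narrowest, 182 bp, lay in an exon of Cyb5r3 and held a single weak SOX17 motif with a score of 7.19 and no GATA6 motif. Over all members the width had a median of 498 bp and a mean of 555.9 ± 268 bp (SD, n = 750). The Transient regions without SOX17 or PTFs measured 497.4 ± 226 bp (n = 8937), and Early&Constant regions with SOX17 and no PTF 658.2 ± 293 bp (n = 2001). Width comes from the same GATA6 peaks as the classes and was not tested.

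To see where these regions differ, they were compared with 3 sets without PTFs, each of which differs from them in 1 class. Transient SOX17-bound regions with PTFs also differ in 1 class, but entered no test. The sets compared were Transient regions with neither SOX17 nor PTFs (8937 regions), Early&Constant regions with SOX17 and no PTF (2001), where GATA6 binds early and stays, and Late regions with SOX17 and no PTF (6144). Shares were compared by two-sided Fisher's exact tests, with p-values adjusted by Benjamini-Hochberg over 61 tables, of which 47 passed 0.05. Brackets give 95% Wilson intervals of a share, which cover counting error only, and neighbouring regions are not independent. Below, the members are called Transient SOX17-bound regions for short, which leaves out those with PTFs. An odds ratio above 0 on the log2 scale means a higher share among the members.

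The Transient SOX17-bound regions were more open in untreated cells than any of the 3 sets. Only 277 of 750 (36.9%, 33.6 to 40.4) were closed at d0, 378 were moderately accessible (50.4%) and 95 accessible (12.7%, 10.5 to 15.2). Among Transient regions without SOX17, 56.1% were closed and 4.65% accessible. Among SOX17-bound Early&Constant regions 72.0% were closed, and among Late ones 83.6%. The log2 odds ratio for closed chromatin was -1.13 (95% interval -1.35 to -0.90) against Transient regions without SOX17, with an adjusted p of 1.94e-23 by Fisher's exact test. It was -2.14 against Early&Constant and -3.12 against Late SOX17-bound regions, with adjusted p of 1.24e-61 and 1.05e-152 by the same exact test. The lower share of closed regions held on 20 of 20 chromosomes in each of the 3 comparisons. Across all 42403 regions, 61.3% were closed.

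The histone states were assigned by the authors from public ES cell data. Poised enhancers made up 24.7% of the members (185 regions), promoter chromatin 19.3% (145), primed enhancers 16.5% (124), facultative heterochromatin 14.3% (107), active enhancers 13.1% (98), constitutive heterochromatin 8.27% (62) and the state named naive 3.87% (29). Promoter chromatin was more frequent than in Transient regions without SOX17 (7.83%, log2 odds ratio 1.5, 1.21 to 1.78, adjusted p = 5.42e-21 by Fisher's exact test). It was also more frequent than in SOX17-bound Early&Constant (5.70%) and Late regions (3.43%), with log2 odds ratios of 1.99 and 2.75.

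The naive state was rarer than in each set, at 3.87% against 11.8%, 24.3% and 25.1%, with log2 odds ratios of -1.73, -3.00 and -3.06. Facultative heterochromatin was also rarer than in all 3 sets, by -0.54, -0.95 and -1.58. Active enhancers were more frequent than in Early&Constant SOX17-bound regions (6.30%, log2 odds ratio 1.16, adjusted p = 5.46e-08 by the exact test) and Late ones (2.91%, 2.32). Against Transient regions without SOX17 (9.87%) the active-enhancer ratio was 0.46 and lost its call within bins of equal region width (0.32, adjusted p = 0.0725, Cochran-Mantel-Haenszel test). Poised enhancers exceeded the shares in Early&Constant (13.7%) and Late regions (11.9%), while their share in Transient regions without SOX17 was 23.6% (log2 odds ratio 0.08, -0.17 to 0.33). That last ratio was 0.39 once promoters were left out, with an adjusted p of 0.00947 by the exact test.

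**Figure D1:**
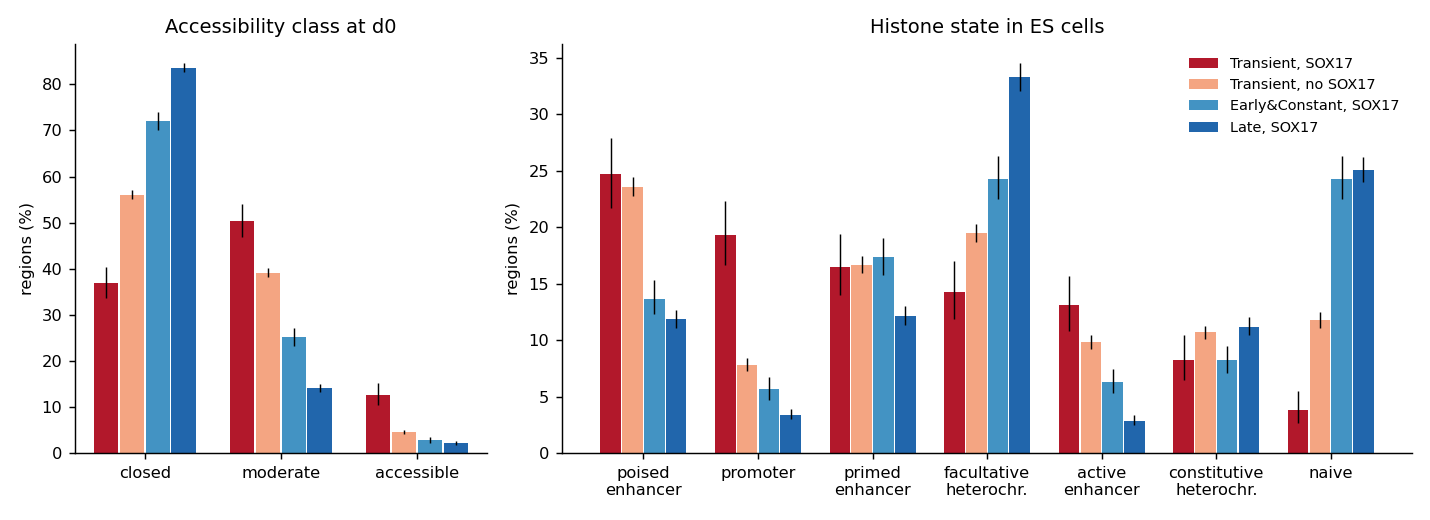
Share of regions (%) in each accessibility class at d0 (left) and in each histone state of ES cells (right) for Transient SOX17-bound regions without PTFs (n = 750) and the 3 sets compared. Bars are shares and lines 95% Wilson intervals; the Transient SOX17-bound bar is lowest for closed chromatin (36.9%) and highest for promoter chromatin (19.3%).

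States and accessibility divided the members along the same line. All 29 naive regions and 100 of 107 facultative heterochromatin regions were closed, whereas none of the 145 promoter-state regions was. Of the 95 accessible regions, 67 were in the promoter state and 17 were active enhancers. The moderately accessible regions were the most mixed, with 119 poised enhancers, 79 active enhancers, 78 promoters and 76 primed enhancers.

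Promoters were also more frequent by position. A total of 178 summits (23.7%, 20.8 to 26.9) lay within 1 kb of an annotated transcript start, 294 in introns (39.2%), 257 between genes (34.3%) and 21 in exons (2.80%). The promoter share was 13.4% in Transient regions without SOX17, 13.2% in Early&Constant and 10.4% in Late SOX17-bound regions, which gave log2 odds ratios of 1.01, 1.03 and 1.42 (adjusted p = 8.62e-13, 2.24e-10 and 1.31e-21 by Fisher's exact test). Within classes of equal accessibility, a comparison added after seeing the data, the ratio stayed at 0.51 against Transient regions without SOX17. It was 0.03 and 0.09 against Early&Constant and Late regions, with adjusted p of 0.85 and 0.667 (Cochran-Mantel-Haenszel test). Among the members, 61 of 95 accessible and 21 of 277 closed regions were promoters. Promoter position and accessibility thus overlap and cannot be told apart here, and what the difference from those 2 sets rests on was not tested. The median distance to a transcript start was 6550 bp for the members and 8392, 7969 and 8712 bp for the 3 sets.

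The sequence around the summit was richer in G and C. GC content of the 201 bp window was 50.07% ± 7.13 (SD, n = 750) against 47.67% ± 6.68, 46.19% ± 5.95 and 44.11% ± 5.55 in the 3 sets, a difference of 2.40 points (95% interval 1.87 to 2.93) from the nearest of them. Summits fell in annotated repeats in 16.1% of the members and in 16.2%, 14.2% and 14.7% of the sets. None of those differences passed, with adjusted p of 0.975, 0.245 and 0.341 by the exact test and odds ratios whose intervals stayed within -0.30 to 0.55.

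A GATA6 motif lay in 496 of 750 summit windows (66.1%, 62.7 to 69.4), a SOX17 motif in 381 (50.8%, 47.2 to 54.4), an OCT4:SOX2 motif in 216 (28.8%) and an ESRRB motif in 124 (16.5%). In windows 3 kb to either side that touched no GATA6 region, the shares were 32.7%, 28.8%, 33.2% and 12.1% of 1417 windows. These windows flank the same members, a pairing that the exact tests against them ignored. The GATA6 motif was thus more frequent at the summits than nearby (log2 odds ratio 2.01, 1.74 to 2.28, adjusted p = 1.31e-49 by Fisher's exact test), and so was the SOX17 motif (1.35, 1.09 to 1.62). The ESRRB motif was slightly more frequent (0.52, 0.16 to 0.88, adjusted p = 0.00806 by the exact test). The OCT4:SOX2 motif did not exceed its surroundings (-0.30, -0.57 to -0.02, adjusted p = 0.0516 by the exact test).

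GATA6 motifs were less frequent than in either of the early-binding sets. They lay in 84.0% of windows of Transient regions without SOX17 and in 89.4% of Early&Constant SOX17-bound windows, giving log2 odds ratios of -1.42 (-1.66 to -1.19) and -2.11 (-2.41 to -1.81), with adjusted p of 2.58e-29 and 2.76e-42 by Fisher's exact test. Among regions closed at d0 the ratios were -1.24 and -1.58. Against Late SOX17-bound regions (72.9%) the ratio was -0.46, but it was 0.42 among closed regions (adjusted p = 0.116 by the exact test) and 0.22 within accessibility classes (adjusted p = 0.133), so that no direction held there. Where a motif was present, its best score in the region averaged 10.25 ± 2.41 (SD, n = 626 regions), below 10.93 ± 2.42 in Transient regions without SOX17 and 11.20 ± 2.29 in Early&Constant ones. It was above 9.80 ± 2.24 in Late ones, by 0.445 (95% interval 0.247 to 0.643).

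No difference in SOX17 motif share from Early&Constant SOX17-bound regions was found beyond the counting error. The share of 50.8% stood against 49.8% there (log2 odds ratio 0.06, -0.19 to 0.30, adjusted p = 0.703 by the exact test) and 29.7% in Transient regions without SOX17 (1.29, 1.07 to 1.5, adjusted p = 5.73e-30 by Fisher's exact test). The last share was close to that of its own surroundings, 28.7%. Late SOX17-bound regions had more, at 62.0% (log2 odds ratio -0.66, -0.88 to -0.44). The best SOX17 score averaged 9.84 ± 1.69 (n = 567), 0.475 above Transient regions without SOX17 (0.329 to 0.621). Its distance to Early&Constant regions was -0.0742 (-0.235 to 0.0867).

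The OCT4:SOX2 motif lay in 28.8% of members against 41.9% of Transient regions without SOX17, although neither set had a called PTF peak (log2 odds ratio -0.84, -1.07 to -0.60, adjusted p = 2.03e-12 by Fisher's exact test). Against Early&Constant regions (31.3%) the ratio was -0.17 (-0.44 to 0.09) in the window, and over the whole region it was -0.70 and passed (adjusted p = 1.38e-07 by the exact test). Whole regions differ in width, with means of 555.9 bp for the members and 658.2 bp for Early&Constant regions, and wider regions offer more places for a motif. In the window the ratio changed sign within bins of equal GC content and within accessibility classes, so that no direction held there. Against Late regions (33.7%) it was -0.33 and became 0.24 within bins of equal GC content (adjusted p = 0.0891, Cochran-Mantel-Haenszel test). The ESRRB motif was more frequent than in Late regions (11.7%, log2 odds ratio 0.58, adjusted p = 0.000381 by the exact test), and its share in Transient regions without SOX17 was 17.7% (-0.12, -0.41 to 0.17). Against Early&Constant regions (13.1%) the ESRRB ratio of 0.39 lost its call in windows of 101 bp, over the whole region, within accessibility classes and without the shared sequence described below.

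**Figure D2:**
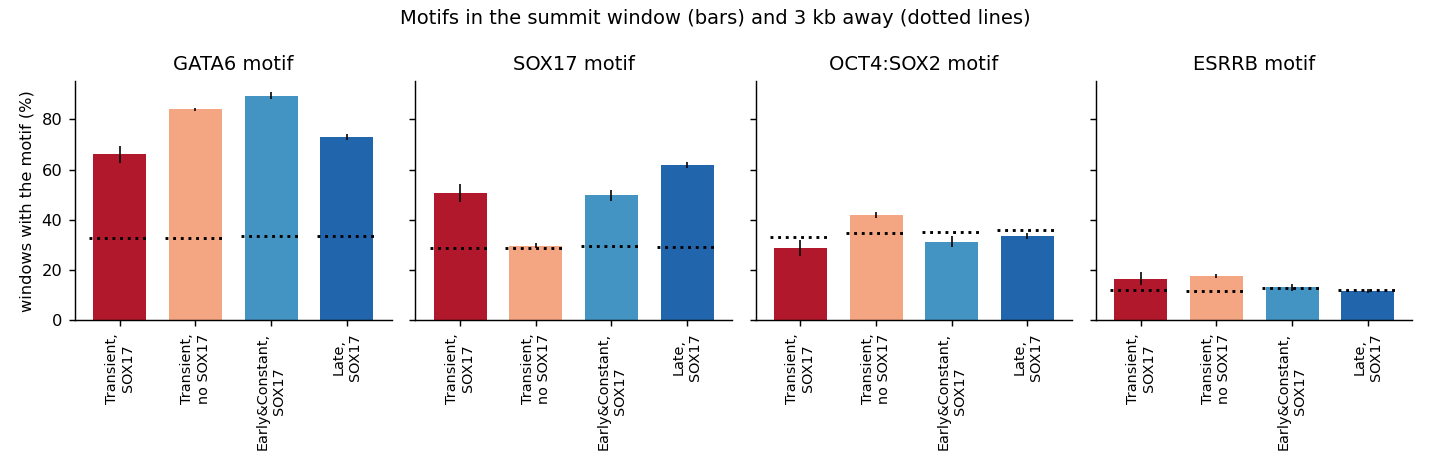
Share of summit windows (%, bars with 95% Wilson intervals) that held each motif in the 4 sets, with the share in windows 3 kb away as dotted lines. In Transient SOX17-bound regions without PTFs the GATA6 (66.1%) and SOX17 (50.8%) bars stand above their dotted lines at 32.7% and 28.8%, while the OCT4:SOX2 bar (28.8%) does not.

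By the motifs together, the members fell into 4 classes. Both motifs lay in 255 windows (34.0%), GATA6 alone in 241 (32.1%), SOX17 alone in 126 (16.8%) and neither in 128 (17.1%). Transient regions without SOX17 were mostly of the GATA6-alone class (59.3%), with 5.05% SOX17 alone and 982 of 8937 neither. Early&Constant SOX17-bound regions had 44.0% both, 45.4% GATA6 alone, 5.85% SOX17 alone and 4.75% neither. The share with both motifs exceeded that of Transient regions without SOX17 (24.7%, log2 odds ratio 0.65, adjusted p = 7.34e-08 by Fisher's exact test). It was below that of Early&Constant and Late (44.8%) SOX17-bound regions, by -0.61 and -0.66, and these 2 calls were lost among closed regions (-0.19 and -0.21).

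The balance shifted with accessibility among the members themselves. Of the 277 closed regions 44.0% held both motifs and 9.03% (6.19 to 13.0) neither. Of the 378 moderately accessible regions 31.7% held both and 16.9% neither. Of the 95 accessible ones 13.7% held both and 41.1% (31.7 to 51.1) neither. A GATA6 motif was present in 80.9%, 62.7% and 36.8% of the closed, moderate and accessible regions, and a SOX17 motif in 54.2%, 52.1% and 35.8%. By state, the GATA6 motif ranged from 49.0% of promoter-state regions to 86.2% of the 29 naive ones, and the SOX17 motif from 28.3% of promoter-state to 66.1% of primed-enhancer regions. Over the whole region rather than the window, 39 of 750 members had neither a GATA6 nor a SOX17 motif.

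**Figure D3:**
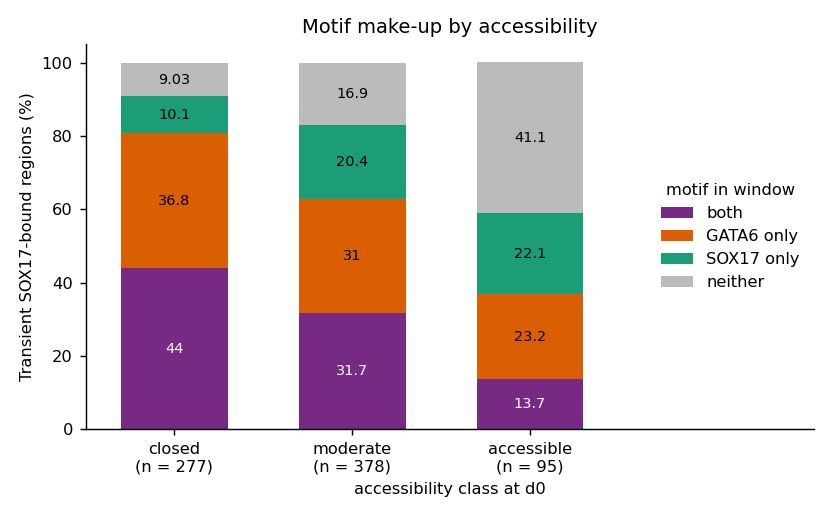
Motif make-up of the summit windows of Transient SOX17-bound regions without PTFs by accessibility class at d0, as stacked shares (%) of windows with both motifs, GATA6 alone, SOX17 alone or neither. Windows with both fall from 44.0% of closed to 13.7% of accessible regions, and windows with neither rise from 9.03% to 41.1%.

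The motifs sat close to the summit. The best GATA6 motif of a window had its centre a median of 29 bp from the summit (quartiles 12 and 52, n = 496), and the best SOX17 motif 35 bp (16 and 60, n = 381). In Transient regions without SOX17 the GATA6 and SOX17 medians were 30 and 45 bp. Where both were present, the gap between them had a median of 35 bp (n = 255), the same as in Early&Constant SOX17-bound regions (35 bp) and shorter than in Transient regions without SOX17 (44 bp), with no test run. The pair overlapped in 21 of 255 windows (8.24%) and stood at most 10 bp apart without overlap in 41 (16.1%). The best SOX17 motif was overlapped by an OCT4:SOX2 motif, which itself contains SOX letters, in 31 of 381 windows (8.14%, 5.79 to 11.3).

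One sequence recurred among the SOX17 motifs. The 381 best SOX17 motifs took 125 different forms, and the commonest, tctATTGTt with the core letters in capitals, made up 34 of them (8.92%), against 3.31% of those in Transient regions without SOX17, 2.61% in Early&Constant and 1.52% in Late SOX17-bound regions. It is a modest motif, with a score of 8.28. The next form, cccATTGTc, scored 12.83 and occurred 13 times. The best GATA6 motifs, in contrast, were nearly all different, with 479 forms among 496 and none more than 3 times. Because this sequence was singled out after its counts were seen, it is described without a test.

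The 9 bases lay in 35 of 750 summit windows (4.67%, 3.37 to 6.42), on 18 of 20 chromosomes, against 1.14% of Transient regions without SOX17, 1.5% of Early&Constant and 1.51% of Late SOX17-bound regions and 1.69% of all 42403. In Transient SOX17-bound regions with PTFs from d0 the share was 10.5%, and in those with ectopic PTFs 1.69%. The match ran on beyond the motif: of the 27 bases around it, a median of 24 were the commonest letter at their place (range 6 to 27), and 27 of the 35 regions matched at 18 or more. In 31 of the 35 the 9 bases lay in soft-masked, that is annotated repeat, sequence. The commonest letters are shown first, with the 9 bases in capitals, and after them 3 of the 5 closest members, read on the strand given.
Commonest letters of the members: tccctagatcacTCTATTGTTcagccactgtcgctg
Between genes, chr17:41199571-41199606, minus strand: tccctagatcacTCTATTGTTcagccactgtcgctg
Between genes near Kyat3, chr3:142692034-142692069, minus strand: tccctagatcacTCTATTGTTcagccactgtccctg
In an intron of Cyp2b23, chr7:26667820-26667855, plus strand: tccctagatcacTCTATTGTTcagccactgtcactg

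In other measures, a GATA6 motif lay in 7 of their windows (20.0%, 10.0 to 35.9), and 18 had none in the whole region. Primed enhancers accounted for 20 of them (57.1%), constitutive heterochromatin for 8 and poised enhancers for 5, while none was in the promoter or naive state. At d0, 24 were moderately accessible, 7 closed and 4 accessible. Leaving out every window with the 9 bases, the SOX17 motif ratio against Transient regions without SOX17 was 1.21 and the GATA6 motif ratio -1.32, so that neither rested on them.

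GATA6 binding after Oct4 knockdown was classed by the authors as decreased, increased or unchanged at 48 h of Dox, in libraries that did not enter the choice of members. Decreased and increased mean a change past the authors' cut-offs, not a full loss or gain of binding. The classes concern the same factor on which the GATA6 clusters rest. A call also depends on how much GATA6 signal a region holds at 48 h. That signal was not compared between the sets, and its part in the differences below was not tested. Across all regions 6.25% were classed as decreased and 8.57% as increased. Of the members 61 (8.13%, 6.38 to 10.3) were decreased, 18 (2.40%, 1.52 to 3.76) increased and 671 unchanged. The decreased share, though not far from that of all regions, was above each like set: 3.58% of Transient regions without SOX17, 2.15% of Early&Constant and 0.488% of Late SOX17-bound regions. On the log2 scale the odds ratios were 1.25 (0.84 to 1.66), 2.01 (1.43 to 2.59) and 4.17 (3.53 to 4.81), with adjusted p of 6.71e-08, 1.89e-11 and 5.34e-37 by Fisher's exact test. They were higher in 16, 18 and 19 of 20 chromosomes.

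The increased share was intermediate. It was above that of Transient regions without SOX17, of which 11 of 8937 were increased (0.123%, log2 odds ratio 4.32, 3.23 to 5.41). It was far below that of Early&Constant (15.4%, -2.89, -3.58 to -2.19) and Late SOX17-bound regions (33.3%, -4.35, -5.03 to -3.67), with adjusted p of 3.21e-13, 1.35e-25 and 6.06e-93 for the 3 comparisons by Fisher's exact test. The first comparison rested on 18 against 11 increased regions, and its direction held on 10 of 20 chromosomes. The directions of the other 2 held on 19 and 20 of 20. All 6 ratios kept their direction and call among closed regions alone, without promoters, and within classes of equal accessibility. Among closed regions, however, the increased share against Transient regions without SOX17 rested on 8 of 277 against 2 of 5015 regions.

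The decreased regions lay mainly where chromatin had been closed. They made up 12.6% (9.23 to 17.1) of closed members, 6.61% of moderately accessible ones and 1.05% of accessible ones, in numbers 35, 25 and 1. Among closed Transient regions without SOX17 the share was 4.97%, among closed Early&Constant SOX17-bound regions 2.64% and among closed Late ones 0.565%. By state the members' share ran from 0.69% of promoter-state regions (1 of 145) to 13.8% of naive regions (4 of 29), with 13.1% in facultative heterochromatin and 10.8% in poised enhancers. An OCT4:SOX2 motif lay in 21 of the 61 decreased windows (34.4%), a GATA6 motif in 44 (72.1%) and a SOX17 motif in 31 (50.8%). The 18 increased members held a GATA6 motif in 14 windows and a SOX17 motif in 10, and 8 of them were closed at d0.

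**Figure D4:**
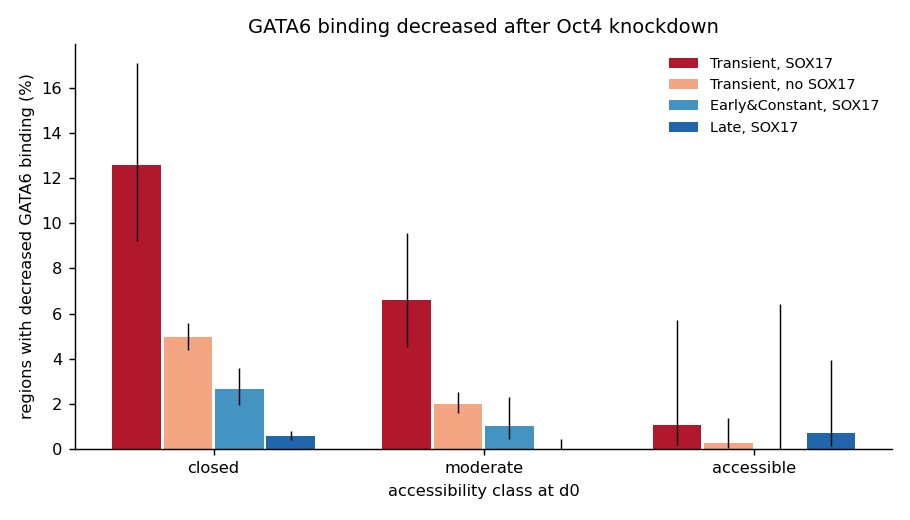
Share of regions (%, with 95% Wilson intervals) whose GATA6 binding was classed as decreased after Oct4 knockdown, by accessibility class at d0, in Transient SOX17-bound regions without PTFs and the 3 like sets. The Transient SOX17-bound bar is highest among closed (12.6%) and moderate regions (6.61%), and the accessible classes hold at most 1 such region each.

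In their surroundings these regions more often had a lasting GATA6 site nearby than Transient regions with neither SOX17 nor PTFs. The summit of an Early&Constant region lay within 10 kb of 197 members (26.3%), against 18.5% for Transient regions without SOX17 (log2 odds ratio 0.65, 0.40 to 0.90, adjusted p = 9.46e-07 by Fisher's exact test). Across all 42403 regions the share was 23.8%, not far from that of the members. The shares for Early&Constant (28.8%, -0.19, -0.46 to 0.09) and Late SOX17-bound regions (24.5%, 0.14, -0.11 to 0.39) did not pass at this distance. Within classes of equal accessibility, the ratio to Early&Constant regions at 10 kb was -0.36 and passed (adjusted p = 0.028, Cochran-Mantel-Haenszel test). At 5 kb the ratio to Late regions was 0.52, with an adjusted p of 0.00061 by the exact test. The nearest other GATA6 region, at a median of 8171 bp, was SOX17-bound for 375 of 750 members and for 37.6% of Transient regions without SOX17, without a test. It lay within 2 kb and was SOX17-bound for 87 members (11.6%), against 5.01%. The nearest region was SOX17-bound for 49.4% of Early&Constant and 54.3% of Late SOX17-bound regions. It also lay within 2 kb for 11.9% and 11.8% of them, so neither share was particular to the members.

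**Figure D5:**
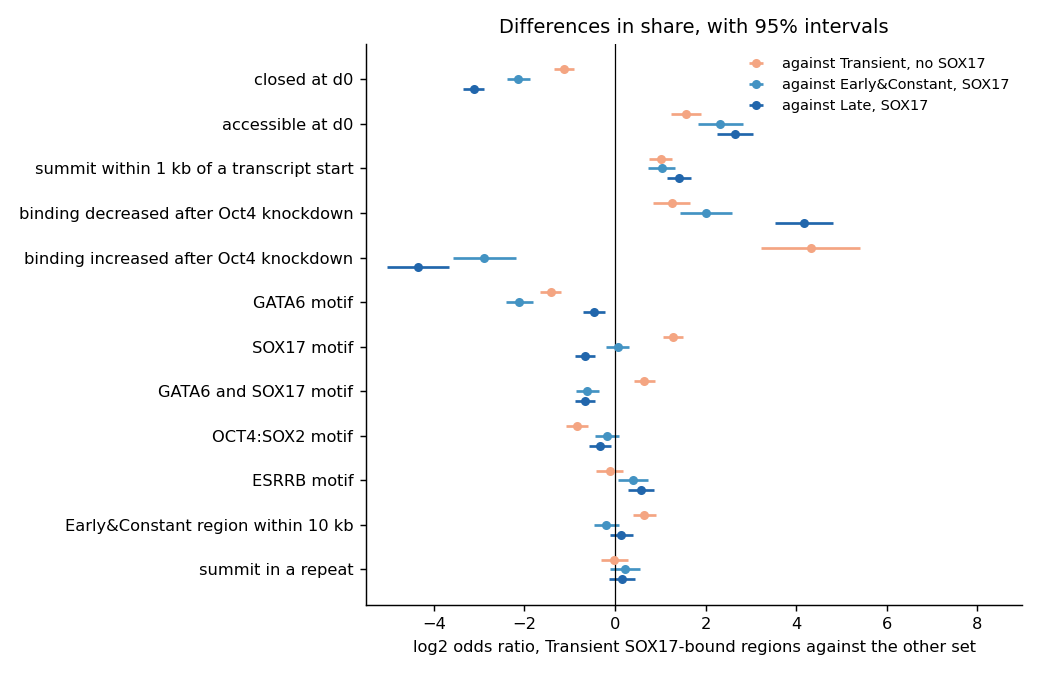
Log2 odds ratios with 95% Woolf intervals of 12 measures, comparing Transient SOX17-bound regions without PTFs with each of the 3 sets; 0 means equal shares. Closed chromatin lies left of 0 against every set and decreased binding after Oct4 knockdown right of 0, while increased binding lies at 4.32 against Transient regions without SOX17 and at -2.89 and -4.35 against the other 2.

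The members were spread over 20 chromosomes, from 0.889% of the regions of chromosome X (11 of 1238) to 2.81% of those of chromosome 7 (64 of 2276). Members wider than 594 bp had a GATA6 motif in 74.8% of windows and a SOX17 motif in 40.0%, and those up to 410 bp wide 58.1% of each. They were closed at d0 in 75 of 250 and 104 of 253 cases, respectively.

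Genes of 5 lists were looked up for a member within 100 kb of a transcript start, as a description. Of 20 PrE regulators 6 had a member, of 20 basement membrane and secretion genes 4, of 20 endoderm transport and surface genes 5, of 25 pluripotency regulators 5, and of 29 annotated signalling genes 3, while every annotated gene of the 5 lists had a GATA6 region of some class that near. Members are 1.77% of all regions. The share of all annotated genes with a member was not counted, so the counts say nothing particular to a list. Another gene's start often lay nearer to a member than that of the listed gene. Among the PrE regulators a member lay 164 bp from the start of Gata6 itself, a moderately accessible poised enhancer of 1235 bp. Another lay 2623 bp from Cebpa, a C/EBP transcription factor gene, where all 7 regions within 100 kb were Transient. The next lay 3247 bp from Sox7, a SoxF gene like Sox17, at chr14:63940199-63941580, with a SOX17 score of 12.83. The nearest member to Gata4, a GATA factor of the same lineage, was a closed poised enhancer 72018 bp away.

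Of the basement membrane genes, Sparc, a secreted matrix glycoprotein, had a member in an intron 1846 bp from its start, an accessible region in the promoter state at chr11:55417734-55418432. Hspg2, which codes for perlecan, had one at 25550 bp, Col4a2, a type IV collagen chain, at 41088 bp and Itga3, an integrin chain, at 63117 bp. Each of these lay nearer to the start of another gene. The Hspg2 one was 493 bp from Usp48, the Col4a2 one 3487 bp from Rab20 and the Itga3 one 198 bp from Ppp1r9b. Among the surface genes Podxl, a sialomucin, had a member 78 bp from its start, an accessible promoter. Cdh1, the gene of E-cadherin, had one in its intron 1911 bp from the start that was an active enhancer in the decreased class after Oct4 knockdown. Lrp2, the endocytic receptor megalin, had one in an intron 21724 bp from the start that was also an active enhancer but in the increased class. Thbd, thrombomodulin, had a closed one at 36184 bp.

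Among pluripotency regulators Tbx3, a T-box factor, had 3 members within 100 kb, the nearest 879 bp from its start in the promoter state, and 16 of its 23 regions were Transient. Utf1, a chromatin-associated factor of ES cells, had an active enhancer 29298 bp away without a GATA6 or SOX17 motif, which lay 5632 bp from 6430531B16Rik. Lin28a, an RNA-binding protein gene, had a member at 40595 bp with a SOX17 score of 12.83, which lay 1379 bp from Crybg2. It was an active enhancer in the decreased class after Oct4 knockdown. Sall4, a zinc finger factor, had a poised enhancer at 76275 bp. Of the signalling genes only the feedback inhibitors Smad7, Spry4 and Spry1 had members, at 14496, 25078 and 46745 bp, and all 3 were active enhancers. What these genes did in the cells was not analysed here.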

How the data were processed

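The deposited table lists GATA6 binding regions with classes and motifs. The authors aligned reads to mm10 with Bowtie2, called GATA6 peaks, clustered their signal over time, called PTF and SOX17 peaks, and used DESeq2 for the knockdown classes. The motif scores were deposited as log-odds scores of the best hit per region. The accessibility classes rest on ATAC-seq of untreated cells. Their cut-offs are not given in the sources used here. The study states MACS2 q-value cut-offs for the peaks, kept where called in every replicate, and an average depth over ChIP-seq libraries, but the depth of single libraries was not analysed here. A further 59 signal columns matched no library of the series, and they, 12 motif-group columns and 4 mean-score columns were not used, so no value of an MNase library entered a comparison. The members, sets and gene lists were chosen with earlier results of these data known.

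The 4 matrices were recovered by least squares from the deposited best motifs (lengths 13, 9, 15 and 11 bp). Rescanning matched the deposited presence and best score, within 0.001, in 100.0% of regions. Windows of 201 bp were scanned on both strands with the lowest deposited scores, 6.23, 7.18, 5.13 and 5.00, as minimums. Transcript starts came from GENCODE M21, sequence and soft-masked repeats from GRCm38. Fisher's exact tests, Woolf intervals and Benjamini-Hochberg adjustment used scipy 1.17.1 and were tested on simulated data. Strata were combined by the Cochran-Mantel-Haenszel test. Named regions were those with the highest GATA6 or SOX17 motif score, overall and by class, the most motifs, extreme widths or highest summed pair, and named genes the 4 nearest per list.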

Additional observations from a re-analysis of the deposited data

How the results depend on the processing

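Of 372 values recomputed under alternatives for 66 results, 316 kept their direction and side of the threshold, 28 changed sign, 22 lost and 4 gained a call, and 2 counts moved. The comparisons within accessibility classes, within GC bins and without the shared sequence were chosen after seeing the data. Values below are log2 odds ratios, and the cause of each change was not tested. No paired analysis was possible because no library's value entered a comparison. The depth of the libraries behind the classes was not analysed here, and it limits every class.

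With 1 region per chain of regions within 50 kb, the ratio was -0.29 for the OCT4:SOX2 motif against Late regions, 0.12 for primed enhancers and 0.17 for repeats against Transient regions without SOX17, and -0.03 for constitutive heterochromatin against Early&Constant regions (-0.05 without chromosomes X and Y). Among closed regions it was 0.14 for ESRRB against Transient regions without SOX17, -0.19 and -0.21 for both motifs against Early&Constant and Late, and 0.42 for GATA6 and -0.13 for OCT4:SOX2 against Late. With motif minimums raised by 2, it was 0.06 for GATA6 and -0.18 for OCT4:SOX2 against Late and -0.16 for SOX17 against Early&Constant. Without promoters, against Transient regions without SOX17 it was 0.10 for ESRRB, 0.39 for poised enhancers, which gained a call, 0.24 for primed enhancers and 0.02 for repeats. Against Late it was then -0.28 for GATA6, -0.19 for OCT4:SOX2 and -0.27 for constitutive heterochromatin, and against Early&Constant 0.24 for primed enhancers. Over whole regions, ESRRB gave 0.02 against Early&Constant and 0.06 against Transient regions without SOX17, and OCT4:SOX2 -0.70, which gained a call, and SOX17 -0.08 against Early&Constant. In 101 bp windows, ESRRB gave 0.50 against Early&Constant, and GATA6 -0.24 and OCT4:SOX2 -0.18 against Late. Without the shared sequence, ESRRB gave 0.37 and SOX17 -0.04 against Early&Constant. Within GC bins, both motifs gave -0.24, GATA6 0.03 and OCT4:SOX2 0.24 against Late, and OCT4:SOX2 0.21 against Early&Constant.

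Within width bins, SOX17 gave -0.13, primed enhancers 0.09 and constitutive heterochromatin -0.43 against Early&Constant, constitutive heterochromatin -0.39 against Late, and active enhancers 0.32 and repeats 0.02 against Transient regions without SOX17. An Early&Constant neighbour within 5 kb gave 0.18 against Early&Constant and 0.52 against Late, which gained a call, and within 50 kb 0.00 against Early&Constant. Within accessibility classes, against Early&Constant the ratio was 0.38 for ESRRB, -0.28 for both motifs, 0.05 for OCT4:SOX2, -0.36 for the neighbour, which gained a call, and 0.03 for promoters. Against Late it was -0.14 for both motifs, 0.22 for GATA6, -0.03 for OCT4:SOX2, -0.13 for the neighbour and 0.09 for promoters, and against Transient regions without SOX17 0.07 for repeats. Within 50 kb rather than 100 kb, 3 PrE regulators and 3 pluripotency regulators had a member.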
